A study of Arabidopsis thaliana with 74 samples.

Results

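The genes described here are 168 loci of Arabidopsis thaliana chromosome 4 with locus numbers AT4G04000 to AT4G09000, an identifier that ends in 0 or 5 and at least 1 CPM (read counts scaled by library size) in at least 2 libraries. The rule used locus number and level, with earlier results of these data known, and took them out of 694 listed loci with such identifiers in the window and 19383 genes kept in the whole table. They comprised 146 protein-coding genes, 19 long non-coding RNA (lncRNA) genes, 2 miRNA genes and 1 other ncRNA gene in the RefSeq annotation of TAIR10.1, which matched all 168. The label of the window was checked against positions in that assembly. The protein-coding members lay between 1.93 and 5.78 Mb, a stretch that holds the centromere and the gene-poor chromatin around it. Not all of the stretch was gene-poor. Between AT4G05590, which starts at base 2907012, and AT4G07390, which starts at base 4195564, AT4G05205 was the only member. Many members, among them UBQ10, ATPC1 and CRK40, lay closer together north of AT4G05590. The locus numbers of many non-coding members did not follow position. Of these, 12 lay outside that stretch, between 1.39 and 16.05 Mb. Others lay inside it but out of order, such as AT4G05205 at 3.76 Mb. All were kept because the rule goes by locus number.

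RNA was sequenced from rosettes cut at 27 days after sowing. The 74 libraries comprised 36 epiHybrids, the 36 epiRILs that were their fathers and 2 msCol lines (12 and 16). An epiRIL is an inbred Columbia line that descends from a cross with the DNA methylation mutant ddm1-2, carries a wild-type DDM1 allele again, and has kept some stretches of its chromosomes in the hypomethylated state of that mutant. msCol is a male-sterile Columbia line with the ms1 mutation on a segment that came from Landsberg, and it was the mother of every epiHybrid. The DNA sequence of all 3 groups is thus mainly that of Columbia, and in an epiHybrid each gene has a copy from msCol and a copy from the epiRIL. Each line gave 1 library made from rosettes pooled over the cultivation experiments, so variation from plant to plant could not be seen and families stood in as replicates. The families had been picked by how far the leaf area of the epiHybrid departed from that of its parents, and are not a random draw.

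Pericentromeric chromatin is rich in transposable elements and is normally held silent by DNA methylation, which in plants lies in CG, CHG and CHH contexts. DDM1 is a chromatin remodelling ATPase that lets methyltransferases reach this DNA. When it is lost, many elements and genes near them become active, and CG hypomethylation can then be inherited for generations even after DDM1 is restored, so that it segregates along the chromosome much like a genetic marker. Methylation itself was not among the files used here, and an active state of a gene was read only from its RNA.

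The libraries held 38130406 to 42206920 counts, so that 1 count was worth 0.0221 to 0.0330 CPM. The epiHybrid of family 340 had the lowest TMM scaling factor, 0.756. The labelled tissue held by its markers: the 4 leaf genes RBCS1A, CAB1, CAB2 and PSBQ-2 summed to 28500 CPM or more in every library, the root genes EXPA7 and SHV2 stayed at or under 0.235 CPM, and the flower genes AP3, PI and AG stayed at or under 14.4 CPM. In 2 families, 12 and 568, the library labelled epiHybrid and the library labelled epiRIL had the opposite order from the other families at 6 of 7 and 7 of 7 genes used to check the labels, all outside the window, which differed between the generations in their group means. No other family had more than 1 of 7 in the opposite order. These 2 families are given by their labels throughout, and several results are given with and without them. In bulk rosettes, fewer cells with an active gene and less RNA per cell cannot be told apart.

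Among the epiRILs, 14 of the 168 members were on/off genes. A library was called on at 1 CPM or more and off at 0.1 CPM or less, and an on/off gene had at least 3 epiRILs in each state. These were 8.33% of the members, and 1.45% of all 19383 genes met the same rule. From north to south along the chromosome they were OFP9 (AT4G04030), AT4G04110, AT4G04265, AT4G04945, AT4G05025, AT4G05205, AT4G07835, AT4G05275, AT4G07965, AT4G08190, AT4G08260, AT4G08430 and AT4G05715, which lay between 1.94 and 5.94 Mb, and AT4G06835 far off at 10.27 Mb. By annotation, 8 code for protein and 6 are lncRNAs. AT4G04265 is annotated as a PttA/En/Spm transposase, the enzyme that moves a DNA transposon, and AT4G08430 as a Ulp1 protease, of a family that cleaves SUMO from proteins. OFP9 is an OVATE family transcription repressor, AT4G04110 has a TIR domain as in many plant immune receptors, AT4G08190 is a P-loop nucleoside triphosphate hydrolase and AT4G08260 a protein phosphatase 2C, an enzyme family of stress signalling. AT4G05205 overlaps AT4G06643 on the other strand and AT4G07835 overlaps the member AT4G05235 on the other strand. AT4G04265 shares 494 of its 730 bases with the pseudogene AT4G04270 on the same strand. AT4G06835 shares 264 bases with AT4G03005, and AT4G05715 27 bases with AT4G09355, both on the other strand. AT4G04270, AT4G03005 and AT4G09355 were not among the kept genes. Strand use in counting is not given in the sources used here, so reads of the shared bases of these pairs cannot be told apart.

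All 14 were off in both msCol libraries. The highest value there was 0.0513 CPM, or 2 counts, and 11 of the 14 had 0 counts in both. Of the 377 epiRIL values called off, 332 were 0 counts, and a count of 0 allows a level of up to 0.0662 to 0.0814 CPM, depending on the epiRIL library (3 counts, counting error only). At least 1 of the 14 was on in 15 of the 36 epiRILs.

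**Figure D1:**
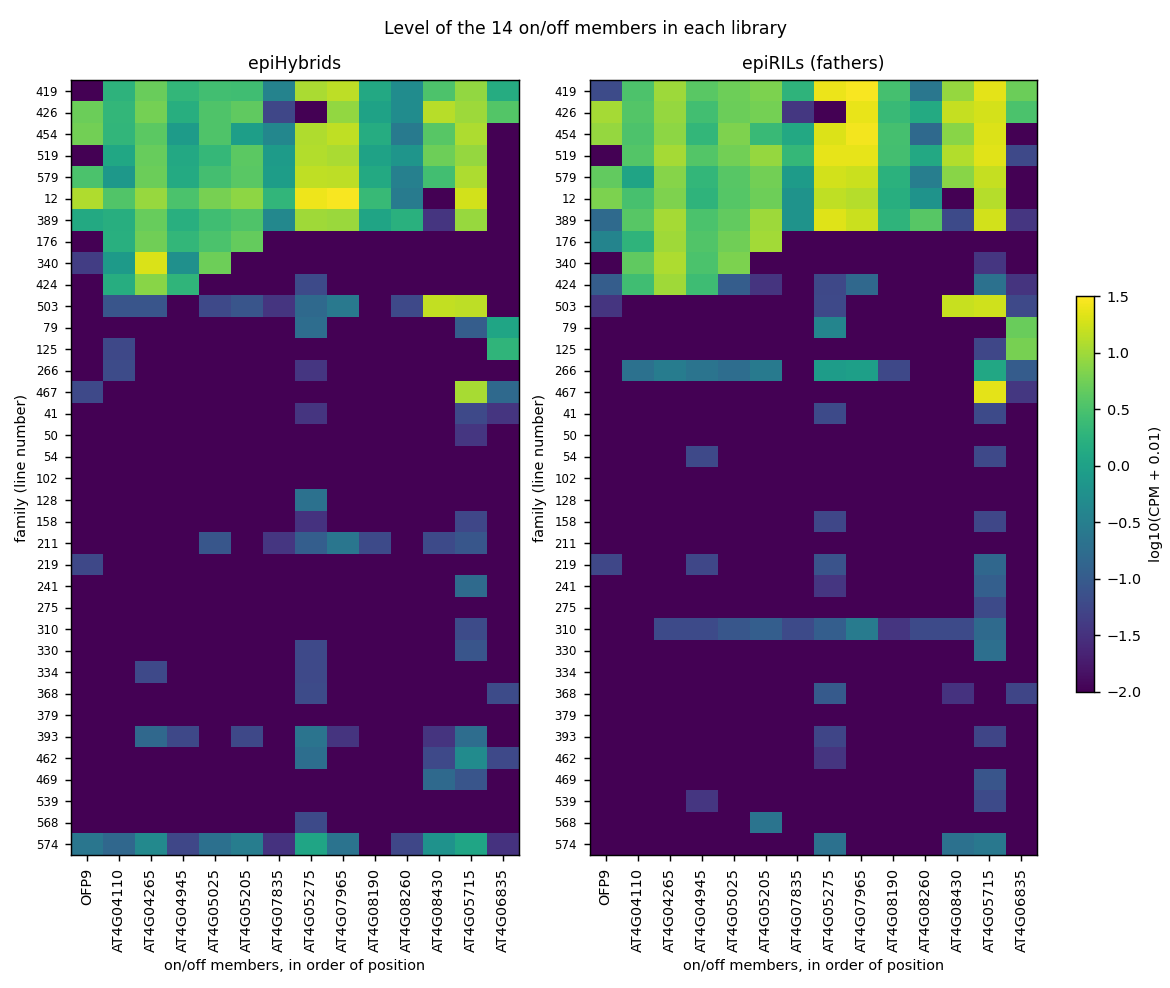
Level of the 14 on/off members (columns, in order of position) in the epiHybrids (left) and in the epiRILs (right) of 36 families (rows, sorted by the number of members on in the epiRIL), as log10(CPM + 0.01). Bright runs in the 7 top rows span most members, families 176, 340 and 424 are bright only at the left, and each run is found again in the epiHybrid panel.

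AT4G04265 (chr4:2057570-2058299, minus strand) was on in 10 epiRILs, at 6.56 to 11.6 CPM with a median of 9.83 CPM, and was at or under 0.0504 CPM in the 25 called off. AT4G04110 (chr4:1972591-1974014) was on in the same 10 lines at 1.1 to 4.38 CPM, and AT4G04945 (chr4:2356071-2356457) was on there at 1.9 to 4.03 CPM. AT4G05025 (chr4:2582655-2583046) was on in 9 of them, at 3.76 to 6.56 CPM. The lines called off had at most 0.0961 CPM in these 4 genes, and 1 line lay between the limits in each.

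AT4G05205 (chr4:3758734-3759286) was on in 8 epiRILs at 2.31 to 10.2 CPM. AT4G05275 (chr4:4796764-4797004) reached 14.6 to 25.3 CPM in 6 lines, and AT4G07965 (chr4:4808635-4809352), whose product is uncharacterised, 13 to 29.5 CPM in 7 lines. These were the 2 highest ranges of the set. AT4G08190 (chr4:5174523-5175476) was on in 7 lines at only 1.56 to 2.9 CPM, but all of its other 29 epiRILs were off and none lay between the limits. AT4G08430 (chr4:5347396-5350436) was on in 6 lines at 7.46 to 16.2 CPM. AT4G05715 (chr4:5937697-5938281) was on in 10 lines at 1.23 to 23 CPM, with 20 off and 6 between the limits, the least sharp division of the 10 genes described so far.

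The remaining on/off members had fewer lines in the rarer state. OFP9 was on in 4 epiRILs (12, 426, 454 and 579) at 4.51 to 10.8 CPM. AT4G07835 was on in lines 419, 454 and 519, at 1.3 to 2.14 CPM. AT4G08260 was on in 389, 426 and 519, at 1.29 to 3.9 CPM. AT4G06835 was on in 79, 125, 419 and 426, at 3.2 to 6.12 CPM.

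Sequence before the annotated start is shown for 4 on/off members from different points of the stretch and for CRK40, a graded member described further on, because the RNA level of these genes differed between the lines. The letters are the 250 bases before the start in TAIR10.1 (RefSeq), read 5′ to 3′ on the strand of the gene, with each CG dinucleotide, the context of inherited methylation, in capitals. The window is set by the annotated start and need not be the promoter.
AT4G04265, chr4:2058300-2058549, minus strand: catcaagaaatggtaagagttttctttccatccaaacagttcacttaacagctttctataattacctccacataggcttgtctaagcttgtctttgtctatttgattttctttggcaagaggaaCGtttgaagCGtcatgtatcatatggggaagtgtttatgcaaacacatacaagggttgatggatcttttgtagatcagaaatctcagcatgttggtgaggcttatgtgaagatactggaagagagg
CRK40, chr4:2288366-2288615, plus strand: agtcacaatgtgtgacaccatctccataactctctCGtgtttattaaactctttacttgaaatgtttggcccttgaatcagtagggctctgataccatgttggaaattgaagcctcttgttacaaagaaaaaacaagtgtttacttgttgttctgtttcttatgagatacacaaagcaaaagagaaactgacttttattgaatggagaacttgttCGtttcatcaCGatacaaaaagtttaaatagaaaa
AT4G07965, chr4:4808385-4808634, plus strand: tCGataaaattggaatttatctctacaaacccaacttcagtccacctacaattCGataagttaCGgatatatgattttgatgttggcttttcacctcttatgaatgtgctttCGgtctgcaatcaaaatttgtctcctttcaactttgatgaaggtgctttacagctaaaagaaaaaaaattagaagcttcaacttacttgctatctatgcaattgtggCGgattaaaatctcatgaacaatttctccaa
AT4G08430, chr4:5350437-5350686, minus strand: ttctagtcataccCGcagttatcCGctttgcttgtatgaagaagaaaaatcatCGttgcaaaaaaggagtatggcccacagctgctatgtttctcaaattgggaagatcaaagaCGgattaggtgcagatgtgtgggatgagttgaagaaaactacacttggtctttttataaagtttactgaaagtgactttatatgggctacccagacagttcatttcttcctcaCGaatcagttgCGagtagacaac
AT4G05715, chr4:5937447-5937696, plus strand: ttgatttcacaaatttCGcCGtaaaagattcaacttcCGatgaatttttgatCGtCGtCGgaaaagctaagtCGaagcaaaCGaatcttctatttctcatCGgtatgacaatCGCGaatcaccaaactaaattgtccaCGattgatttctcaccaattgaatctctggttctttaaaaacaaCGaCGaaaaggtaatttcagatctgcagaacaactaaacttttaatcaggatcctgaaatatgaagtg

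The windows differed widely in CG content. AT4G05715 had 14 CG dinucleotides, a number reached by 4% of the 19379 windows of the same length before kept genes. AT4G08430 had 6, AT4G07965 5, CRK40 3 and AT4G04265 2. The median was 5 over all windows, 5 over the 168 members and 5 over the 14 on/off members.

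The state of the father was found again in its epiHybrid. Over the 14 genes there were 97 cases of a father that was on, and in 86 of them the epiHybrid was on too, in 10 it lay between the limits and in 1 it was off. Of 377 cases of a father that was off, the epiHybrid was off in 359 and between the limits in 18, and it was on in 0. In a further 30 cases the father lay between the limits, and the tests left these out. Some of their epiHybrids were off, as in family 266. Others were on, as at OFP9 in family 389, with 1.33 CPM against 0.153 CPM in the father. The 97 cases came from 15 families, with up to 12 genes in a family. These genes ran together along the chromosome, as described below, so cases and tests of different genes are not independent. Fisher's exact test per gene (one-sided, Benjamini-Hochberg adjustment over the 281 on/off genes of the table) called 12 of the 14, whereas 64.1% of the 281 were called. AT4G04265 had 10 fathers on with the epiHybrid on and 23 fathers off with the epiHybrid off, and no family that went the other way (adjusted p = 5.06e-07, exact test). The 2 not called were AT4G07835 and AT4G08260, each with 3 fathers on, and of the 6 epiHybrids 5 fell between the limits.

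The level was lower in most epiHybrids than in their fathers. AT4G04265 had 4.2 to 20.1 CPM in the epiHybrids of the 10 fathers that were on, with a median of 5.33 CPM, against 6.56 to 11.6 CPM and a median of 9.83 CPM in those fathers. AT4G07965 had 8.6 to 29.3 CPM in epiHybrids, median 14.3, against 13 to 29.5 CPM in the 7 fathers, median 23.6. AT4G08430 had 2.77 to 15.3 CPM in epiHybrids, median 4.61, against 7.46 to 16.2 CPM in the 6 fathers, median 10.6. The ranges of the 2 generations overlapped in all 3 genes. For AT4G07965 the overlap came from family 12 alone, whose labels are in doubt, and without it the epiHybrids had 8.6 to 14.4 CPM against 16.5 to 29.5 CPM in the 6 fathers. For AT4G04265 the ranges overlapped without family 12 too, and AT4G08430 was off in that family.

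Over all 97 cases, which are not independent, the epiHybrid had 0.525 times the CPM of its father (median), and it was below the father in 85. The mother was silent at these genes, so the mean of the parents corresponds to a ratio of 0.5. Family 12 stood apart. Its library labelled epiHybrid was above its library labelled epiRIL at all 10 members that were on, by 1.18 to 2.25 times. Without family 12 the epiHybrid was below its father in 85 of 87 cases, with a median ratio of 0.512. Family 568 had no member on. The 2 exceptions were AT4G04265 in family 340, with 20.1 CPM in the epiHybrid and 11.6 CPM in the epiRIL, and AT4G06835 in family 426, with a ratio of 1.14. Across genes, the median ratio without family 12 lay between 0.3 for AT4G06835 and 0.642 for OFP9.

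**Figure D2:**
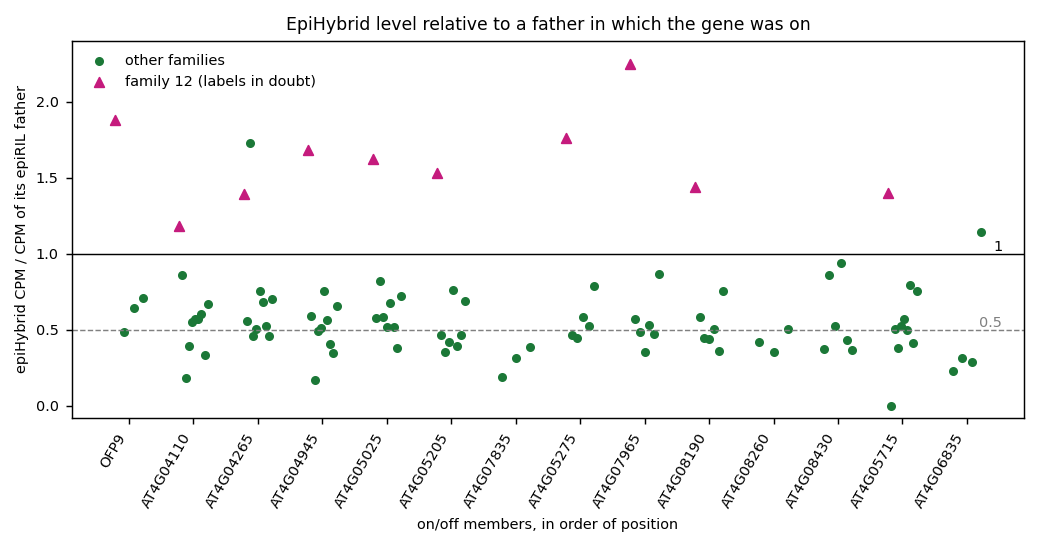
CPM of an epiHybrid divided by the CPM of its epiRIL father (vertical axis) for each on/off member (horizontal axis) and each family with the gene on in the father. All 10 triangles of family 12 lie above 1, from 1.18 to 2.25, and 85 of the 87 points of the other families lie below 1, around a median of 0.512.

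A pair of libraries had low levels at many of these genes at once. EpiRIL 266 lay between the limits at 7 of the 13 members north of 6 Mb, with a median of 0.19 CPM and a maximum of 1.23 CPM at AT4G05715, while its epiHybrid was off at all 13. EpiHybrid 574 lay between the limits at 7 of the 13 and was just on at 2, with a maximum of 1.14 CPM, while its father was on at none and off at 10. EpiRIL 310 lay between the limits at 4.

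The states ran together along the chromosome. Of the 91 pairs of on/off members, 57 (62.6%) co-segregated among the epiRILs (Fisher's exact test, two-sided, adjusted over all 39340 pairs of on/off genes). Of all 39340 pairs, 6.04% were called. Those pairs were taken from the whole table without regard to chromosome or distance, whereas all member pairs lie on the same chromosome. The percentages thus do not compare pairs at like distances, and no background of pairs on the same chromosome was computed. Without AT4G06835, 57 of 78 member pairs co-segregated, and none of the 13 pairs with AT4G06835 was called. The median distance was 1180 kb in pairs that co-segregated and 2720 kb in the other pairs of the first 13 genes. These distances also depend on which pairs could be called, since AT4G07835 and AT4G08260, for example, were on in only 3 lines each. AT4G04110 and AT4G07835 had equal states in 28 of 32 lines and were still not called (adjusted p = 0.0991, exact test). A decline with distance was not tested. The farthest pair that co-segregated was 3970 kb apart. AT4G04110, AT4G04265 and AT4G04945 had the same state in all 35 epiRILs with both genes of a pair called (adjusted p = 9.84e-06 for each neighbouring pair, exact test), as AT4G07965 and AT4G08190 had in 33 of 33.

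In locus order the members formed a block of 8 genes, OFP9 to AT4G05715, and a block of 4, AT4G07835 to AT4G08260, with every neighbouring pair called. These 2 blocks follow the numbering and interleave in position. AT4G07835 at 4.66 Mb, for example, lies between AT4G05205 at 3.76 Mb and AT4G05275 at 4.8 Mb. In order of position the first 11 genes, OFP9 to AT4G08260, made 1 block that spanned the centromere. The pair AT4G08260 and AT4G08430 broke it, with equal states in 29 of 31 lines but only 2 lines with both on (adjusted p = 0.226, exact test). AT4G08430 and AT4G05715 were called again as a pair.

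The lines read as runs of states. Counting the 13 members north of 6 Mb, 7 epiRILs (12, 389, 419, 426, 454, 519 and 579) had at least 8 on, and 23 had none on. Line 454 had 12 on and none off. Line 176 was on at AT4G04110 through AT4G05205 and off at every member south of that. Line 340 was on over AT4G04110 to AT4G05025 only, and line 424 over AT4G04110 to AT4G04945 only. Line 503 was off from OFP9 to AT4G08260 and on at AT4G08430 and AT4G05715, and line 467 was on at AT4G05715 alone.

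Breaks inside a run were few. Lines 12 and 389 were off at AT4G08430 alone, with members on at both sides of it. Line 426 was off at AT4G07835 and AT4G05275 and on at all other members of the run. Changes of state were counted with members between the limits passed over. Among epiRILs, 25 showed no change of state along the 13 genes (23 of these had none on), 6 showed 1 and 5 showed 2. Among epiHybrids, 25 showed none (23 of these had no member on), 4 showed 1 and 6 showed 2. EpiHybrid 574 was the 1 with more. The edges of the runs recurred in the epiHybrids: 176, 340, 424, 467 and 503 had in the epiHybrid the same last change of state as in the father.

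A graded member lay inside the northern run and followed it in the other direction. CRK40 (AT4G04570, chr4:2288616-2292965) codes for a cysteine-rich receptor-like kinase, a family of membrane kinases with roles in defence and oxidative signalling. It had 30.1 to 87.3 CPM in epiHybrids with a median of 58.1, 22.8 to 94.1 CPM in epiRILs with a median of 62.3, and 46.7 and 47.7 CPM in msCol. The 10 lowest epiRIL values, 22.8 to 43.3 CPM, belonged to lines 424, 454, 176, 419, 389, 519, 426, 340, 579 and 12, which were the 10 lines with AT4G04265 on. The 25 lines with AT4G04265 off had 48.7 to 94.1 CPM, and line 266, between the limits, had 66.8 CPM. The 2 sets of lines did not overlap, and in family 12 the other library, labelled epiHybrid, was low as well, at 30.1 CPM.

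Among the other 19382 genes of the table, CRK40 was the only one with lower values in every line with AT4G04265 on than in any with it off (0.00516%). Another 6 genes (0.031%) were higher in every such line. These were the members AT4G04110, AT4G04945 and AT4G05025 and the genes AT4G03570, AT4G03830 and AT4G03950 to the north, and all 6 lay on chromosome 4 within 525 kb of AT4G04265. The lines were divided here by a measured level and CRK40 was singled out after its values were seen, so these are descriptions and no test was made of them.

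In the epiHybrids, 9 of the 10 lowest CRK40 values came from the same families, at 30.1 to 45.3 CPM. The epiHybrid of family 426 was the exception, with 58.1 CPM against 30.3 CPM in its father. Both msCol libraries, in which AT4G04265 was silent, had 46.7 and 47.7 CPM, just under the lowest epiRIL with that gene off. The 4 other kept genes of the CRK family in the window did not divide the lines in this way.

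ORTHL (AT4G08590, chr4:5463794-5466747) was high in most epiRILs with the southern part of the run. It codes for an ORTHRUS-like protein of the VIM family, whose better studied members bind methylated CG sites and help to maintain them. It had 2.36 to 6.84 CPM in epiHybrids, 1.75 to 7.6 CPM in epiRILs and 3.99 and 3.56 CPM in msCol. The 7 highest epiRIL values, 6.53 to 7.6 CPM, belonged to 579, 426, 503, 419, 389, 519 and 454, and AT4G08190 was on in 6 of these 7. Line 503, on only from AT4G08430 southwards, had 7.28 CPM. Line 467, on at AT4G05715 alone, had 5.21 CPM. Family 12, on at AT4G08190 and off at AT4G08430 in both libraries, had 6.84 CPM in the library labelled epiHybrid, the highest of that label, and 4.18 CPM in the library labelled epiRIL, so the level of line 12 depends on labels that are in doubt. The 3 lines with only the northern run, 176, 340 and 424, had 1.86, 2.68 and 3.87 CPM. In the epiHybrids of the fathers with AT4G08190 on the range was 3.22 to 6.84 CPM, against 2.36 to 6.2 CPM in the other epiHybrids, and the ranges overlapped. The epiHybrid of family 426 was again the exception, with 3.22 CPM against 7.54 CPM in its father. ORTHL shares 114 bases with AT4G08580 on the other strand.

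**Figure D3:**
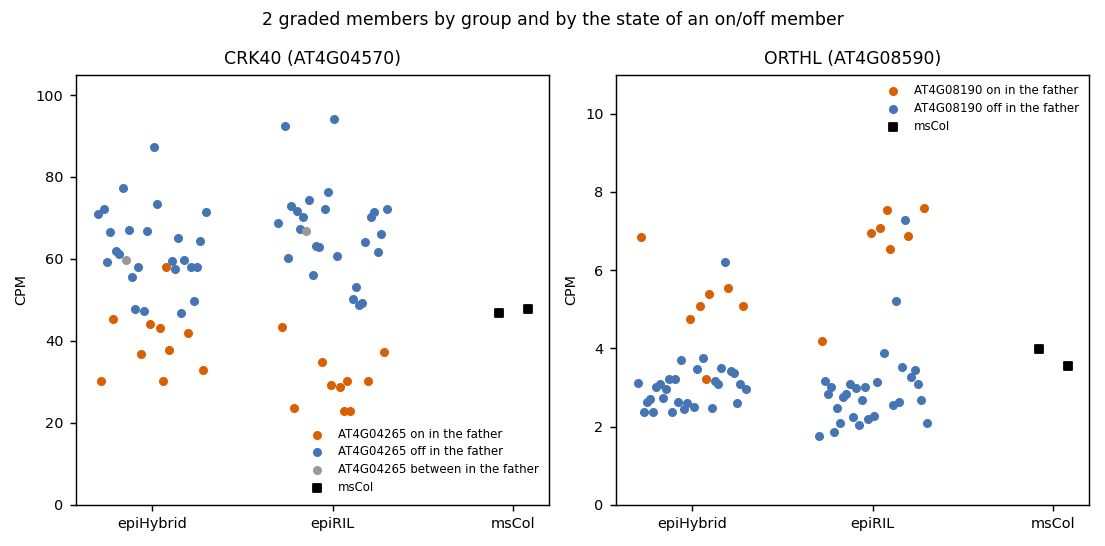
CPM of CRK40 (left) and ORTHL (right) in epiHybrids, epiRILs and msCol, 1 point a library, coloured by the state of AT4G04265 or AT4G08190 in the epiRIL of the family. The 10 orange epiRIL points of CRK40, 22.8 to 43.3 CPM, lie below all blue ones, and the orange points of ORTHL lie mostly at the top.

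The level of the father was related to that of the epiHybrid in 52 of the 168 members (Pearson r of log2(CPM + 1) over 36 families, one-sided permutation test with 100000 shuffles, adjusted over all genes), or 31%, and in 18.6% of all genes. In 28 of these 52 the fathers fell into separate clusters, and no coefficient is given for them; 38 of the 52 were not on/off genes. The median r was 0.303 over members and 0.273 over all genes. Rank correlation and the fit without the 2 fathers farthest from the median called 26 of the 52 as well, or 15.5% of the members, and 4.33% of all genes met all 3. On/off genes such as AT4G04265 and AT4G05025 were among the 26. They were on in many of the same lines, so these calls are not independent and partly repeat the transmission of states.

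Among graded members ORTHL had the highest coefficient, r = 0.761 (permutation p = 1e-05, adjusted p = 0.000707) with rho = 0.714 and r = 0.8 without the 2 farthest fathers. CRK40 had r = 0.756 (permutation p = 1e-05, adjusted p = 0.000707), with rho = 0.758 and r = 0.692 without the 2 farthest fathers. For both, p was the smallest that the shuffles can give. In both genes the lines with the run made up one end of the range, and no coefficient was computed without them.

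MEE51 (AT4G04040), annotated as a phosphofructokinase family protein and next to OFP9, had 65 to 111 CPM in epiHybrids and 58.3 to 102 CPM in epiRILs. Its r was 0.725, with rho = 0.611 and r = 0.679 without the 2 farthest fathers (adjusted permutation p = 0.000707 for r). MSRB5, a methionine sulfoxide reductase that repairs oxidised methionine in proteins, had r = 0.64 and rho = 0.558, and leaving out the 2 farthest fathers gave 0.542. AT4G04925, whose product is uncharacterised, had r = 0.608 and rho = 0.669, and UMAMIT20, an EamA-like transporter, r = 0.606 and rho = 0.597. NDB2, an alternative NAD(P)H dehydrogenase of mitochondria, had r = 0.549 and rho = 0.582, and the precursor MIR841b r = 0.517 and rho = 0.524, and both were called by all 3 measures, as the 6 genes before them were. After removal of 5 principal components of the family libraries NDB2 had r = 0.03 (adjusted permutation p = 0.584) and UMAMIT20 r = 0.41 (adjusted permutation p = 0.0601), and both calls were lost. Over these 8 genes the adjusted permutation p lay between 0.000707 and 0.016 for r and between 0.00105 and 0.0177 for rho. AGD13 (r = 0.523, adjusted permutation p = 0.0149) and MYB74 (r = 0.512, adjusted permutation p = 0.0223) were called by r but not by rank (rho = 0.413 and 0.334, adjusted p = 0.054 and 0.0841), and without the 2 farthest fathers their r was 0.389 and 0.25.

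**Figure D4:**
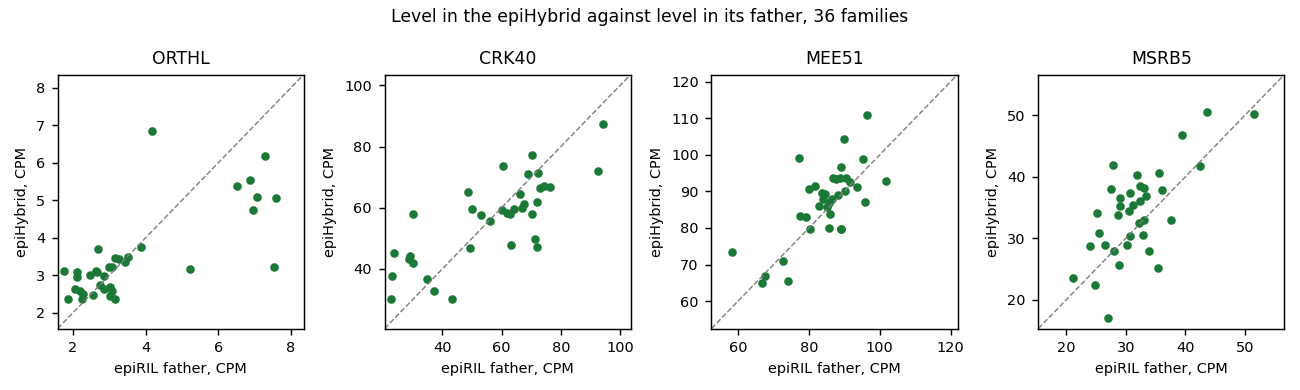
CPM of the epiHybrid (vertical) against CPM of its epiRIL father (horizontal) for ORTHL, CRK40, MEE51 and MSRB5 over 36 families, with the line of equality dashed. Fathers with high ORTHL and fathers with low CRK40 form a group at one end of the range, and r is 0.761 and 0.756 in these 2 genes.

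The members that varied most between lines were on/off genes. Their rule asks for high and low values among the same epiRILs, so this overlap is in part set by the rule. The standard deviation of log2(CPM + 1) was over 0.5 among epiRILs for 17 members (10.1%), as for 5.08% of all genes, and 12 of the 17 were on/off genes. It was largest for AT4G05715 (1.56 in epiHybrids and 1.85 in epiRILs), AT4G07965 (1.55 and 1.78), AT4G05275 (1.45 and 1.65), AT4G04265 (1.34 and 1.52) and AT4G08430 (1.11 and 1.35). AT4G05205, AT4G05025, OFP9 and AT4G04110 followed. The only gene of the 10 widest that was no on/off gene was the lncRNA AT4G05215, which had a maximum of 8.1 CPM in epiHybrids and 19.8 CPM in epiRILs and medians of 0.101 and 0.0743 CPM.

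Most members varied little. The median standard deviation was 0.27 in epiHybrids and 0.21 in epiRILs over members, and 0.26 and 0.2 over all genes. The spread of epiHybrids and epiRILs around their own medians differed in 0 of 168 members after adjustment (sign-flip permutation test over families, two-sided, 0% of all genes called). At an unadjusted p under 0.05, 25 members were wider in epiHybrids and 10 in epiRILs, against 13.4% and 1.2% of all genes. CRK40 (unadjusted permutation p = 0.0122), ORTHL (0.011) and MIR841b (0.00234) were among the 10. So were the on/off members AT4G04945 (0.00496), AT4G04110 (0.00776), AT4G05205 (0.0222) and AT4G05025 (0.024), whose level was lower in most epiHybrids than in fathers that were on. The 5 most abundant members were PSBQ-2 of photosystem II (median 3080 CPM in epiHybrids and 3050 CPM in epiRILs), the polyubiquitin genes UBQ10 (1770 and 1910 CPM) and UBQ11 (459 and 458 CPM), ATPC1 of the chloroplast ATP synthase (1520 and 1500 CPM) and the 14-3-3 gene GRF1 (265 and 264 CPM). Their standard deviations were 0.17 to 0.37 in epiHybrids and 0.12 to 0.28 in epiRILs on the log2 scale. GRF1 shares 842 bases with the lncRNA AT4G05685 on the other strand.

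No member was called between epiHybrids and epiRILs (0 of 168; edgeR quasi-likelihood test with family as a block, 1.31% of all genes called), 22 had an unadjusted p under 0.05 (9.92% of all genes), and DESeq2 called 0. Without families 12 and 568, 1 was called. AT4G04945 was then lower in epiHybrids (0.939% of all genes were lower with every family kept), with a log2 fold change of -1.09 ± 0.26 (SE, edgeR adjusted p = 0.0368). The median log2 fold change over members was -0.01.

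Against msCol, 7 members were called in the epiRILs (2.75% of all genes called) and 6 of the same 7 in the epiHybrids (1.83%). In epiRILs 2 were higher and 5 lower (1.19% and 1.56% of all genes), and in epiHybrids 2 were higher and 4 lower (0.795% and 1.04%). At an unadjusted p under 0.05 there were 23 in each contrast (14.4% of all genes in epiRILs and 13.7% in epiHybrids). Both contrasts share the 2 msCol libraries, so they are not independent. MSRB5 had 17.1 to 50.6 CPM in epiHybrids and 21.2 to 51.5 CPM in epiRILs, against 67.6 and 66.1 CPM in msCol, and no library of either generation reached the msCol level. The log2 fold change was -0.97 ± 0.19 in epiHybrids and -1.07 ± 0.18 in epiRILs (SE, edgeR adjusted p = 0.000905 and 5.41e-05). Its neighbour MSRB4 had 2.57 to 6.64 CPM in epiHybrids and 2.33 to 6.21 CPM in epiRILs, against 8.88 and 7.9 CPM in msCol. The change on the log2 scale was -1.05 ± 0.21 in epiHybrids and -1.1 ± 0.21 in epiRILs (adjusted p = 0.00206 and 0.000427, edgeR). MSRB3, in the same tandem array, had medians of 26.8 CPM in epiHybrids and 26.6 CPM in epiRILs, against 25.6 and 27.2 CPM in msCol, and MSRB6 was not called either.

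AT4G04750, a major facilitator superfamily transporter a few genes to the north, was higher than in msCol. It had 12.9 to 22.3 CPM in epiHybrids and 13.3 to 23.4 CPM in epiRILs, against 10.5 and 11.1 CPM in msCol. Its change was 0.76 ± 0.15 in epiHybrids and 0.83 ± 0.15 in epiRILs on the log2 scale (adjusted p = 0.0015 and 0.00019, edgeR). APR1, the APS reductase of sulphate assimilation, was lower, with medians of 107 CPM in epiHybrids and 103 CPM in epiRILs, against 156 and 180 CPM in msCol (-0.67 ± 0.17 in epiHybrids and -0.7 ± 0.17 in epiRILs on the log2 scale, adjusted p = 0.0235 and 0.0103, edgeR). AT4G08690, a Sec14p-like phosphatidylinositol transfer protein, was higher, with a log2 fold change of 0.44 ± 0.12 in epiHybrids and 0.46 ± 0.12 in epiRILs (adjusted p = 0.0323 and 0.0157, edgeR), and it shares 56 bases with SAH7 on the other strand. The lncRNA AT4G06065, at 7.81 Mb, was lower, with a log2 fold change of -1.64 ± 0.34 in epiHybrids and -2.02 ± 0.33 in epiRILs (adjusted p = 0.00263 and 2.05e-05, edgeR). KNAT1, a KNOX homeobox gene of the shoot meristem, had medians of 11.5 CPM in epiHybrids and 10.2 CPM in epiRILs, against 26.6 and 18.8 CPM in msCol. It was called in epiRILs (-1.11 ± 0.29, adjusted p = 0.0164, edgeR) and missed the threshold in epiHybrids (-0.87, adjusted p = 0.11, edgeR), where the library of family 368 had 36.2 CPM. Without families 340 and 368 it was called in epiHybrids too (-0.96 ± 0.25, adjusted p = 0.0161, edgeR).

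All 36 epiRILs were on the same side of both msCol libraries at each of the 7 genes, and all 36 epiHybrids at 5 of their 6, with 35 of 36 at AT4G08690. At all 6 genes the median of the epiHybrids was nearer to that of the epiRILs than to either msCol library, a description without a test. The msCol group rests on 2 libraries. Without msCol 12, AT4G04750, MSRB5 and AT4G06065 were called in epiRILs, and AT4G06065 was the 1 of the 6 still called in epiHybrids, beside ARGAH2, which was not among them and is named here after its value was seen. Without msCol 16, the same 3 and MSRB4 were called in epiRILs and 0 members in epiHybrids. APR1, AT4G08690 and KNAT1 thus lost their call in epiRILs without either library. In epiHybrids APR1 and AT4G08690 also lost it with no TMM factor (adjusted p = 0.0508 and 0.073, edgeR) and with the 2 groups alone (adjusted p = 0.0598 and 0.122, edgeR). None of the on/off members was called against msCol by edgeR, and most lines were off at them, as msCol was.

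**Figure D5:**
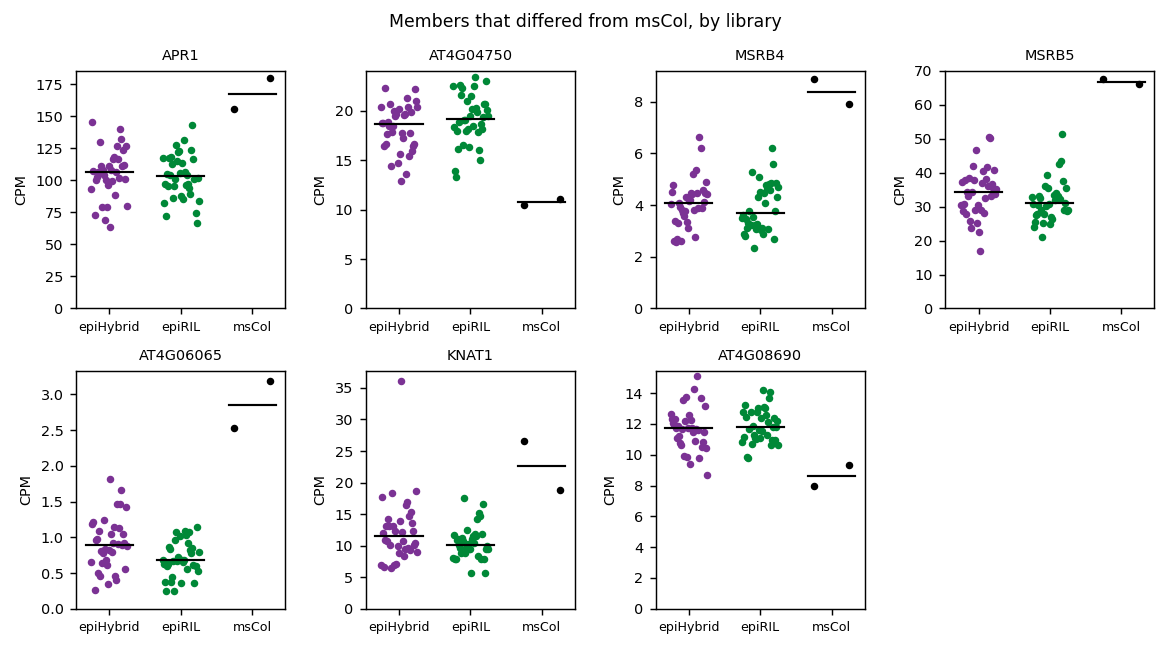
CPM of the 7 members called against msCol in epiHybrids, epiRILs and msCol, 1 point a library with the group median as a bar. The 36 epiRILs lie wholly on one side of both msCol points in each panel, for example 21.2 to 51.5 CPM against 67.6 and 66.1 CPM for MSRB5.

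Gene families of the stretch were followed by lists. Of 6 cysteine-rich receptor-like kinases, 5 were kept (CRK25 was not), none was called in any contrast, and CRK40 was the 1 called for the relation of father and epiHybrid. CRK36 had medians of 7.9 CPM in epiHybrids and 8.99 CPM in epiRILs, CRK37 2.85 and 3.29 CPM, CRK38 0.861 and 0.894 CPM, and CRK39 0.837 and 0.806 CPM. The range of CRK37 was wide in both generations, 0.984 to 7.14 CPM in epiHybrids and 0.793 to 8.48 CPM in epiRILs. The median log2 fold change of the 5 was 0.19 in epiHybrids and 0.26 in epiRILs against msCol, beside 0.03 and 0.02 over all genes.

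Of 5 calcium-dependent protein kinases, which couple calcium signals to phosphorylation, 4 were kept and none was called in a contrast. CPK21 had a median of 50.8 CPM in epiHybrids and 51.5 CPM in epiRILs, CPK23 27.4 and 27.1 CPM, CPK31 7.47 and 7.49 CPM, and CPK27 3.91 and 3.92 CPM. CPK23 was called for the relation (r = 0.428, adjusted permutation p = 0.0456), but not by rank (rho = 0.392, adjusted p = 0.0615). The 3 kinases MEKK1, MAPKKK9 (AT4G08480) and MEKK3 of the mitogen-activated cascade, a tandem cluster near AT4G08430, were likewise not called in any contrast. They had medians of 30.4, 20.6 and 75.7 CPM in epiHybrids and 31.4, 20.2 and 79.9 CPM in epiRILs, and MAPKKK9 was called for the relation (r = 0.433, adjusted permutation p = 0.0378) but not by rank (adjusted p = 0.0553).

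The 6 genes expressed in most cells (UBQ10, UBQ11, NSF, DDB1A, CRY1 and ATPC1) were called in no contrast, and their median log2 fold change was 0.02 in epiHybrids and 0.03 in epiRILs against msCol. Of the 2 genes for proteins of DNA methylation, ORTHL was described above, and the methyltransferase gene AT4G08990 had 0.159 to 1.81 CPM in epiHybrids and 0.252 to 1.56 CPM in epiRILs, against 1.06 and 0.718 CPM in msCol, and was called in no contrast.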

How the data were processed

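RNA was sequenced from rosettes of 36 epiHybrids, 36 epiRILs and 2 msCol lines, 1 library a line. The deposited table holds raw read counts per gene that the authors made with Trim Galore, TopHat2 and featureCounts per the labels. Versions, strand and the handling of reads with several matches are not given in the sources used here. Counts were used as deposited: a filter of 1 CPM reached in 2 or more libraries left 19383 of 32833 listed genes, holding 99.937% of counts, and CPM used TMM factors (edgeR 4.0.16, R 4.3.3). Totals were 38130406 to 42206920 a library, so 3 counts, the limit that a count of 0 allows, were 0.0662 to 0.0990 CPM.

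Contrasts used edgeR's quasi-likelihood test with Benjamini-Hochberg adjustment over all kept genes and a threshold of 0.05. The epiHybrid contrast with epiRILs had family as a block, since each epiHybrid is the child of the epiRIL of its number. Deviations of the 2 libraries of a family correlated above 0.1 in 30 of 36 families (median 0.432, lowest -0.299). The own father was the best match in 20 of the 36. The msCol contrasts used 1 model of all 74 libraries. The relation of father and epiHybrid and the spread used log2(CPM + 1) with 100000 shuffles or sign flips, states used Fisher's exact test (SciPy 1.17.1), and DESeq2 1.42.0 was an alternative. Scripts were tested on simulated data. Names, positions and sequences came from RefSeq's TAIR10.1, whereas the count table carries no coordinates. All on/off members were named, with the widest, most related, most changed and most abundant members (up to 10, 10, 5 in each direction and 5) and the listed gene families. The members and lists were chosen with earlier results of these data known. Plants of a line were pooled, so no p-value measures the spread between plants. The contrast of epiHybrids with epiRILs, the relation and the spread rest on families. The msCol contrasts had no family term, so an epiHybrid and its father counted as independent there, and msCol libraries are not families. Fisher's exact tests measure the association of states.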

Additional observations from a re-analysis of the deposited data

How the results depend on the processing

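Of 61 alternatives to the counts of members, 50 left the count within 1.5 times and 11 moved it. Between epiHybrids and epiRILs the count was 0, also with no replicate block (0) in place of the pairing by family, and 1 without the 2 families against their labels. Against msCol, the 7 calls in epiRILs became 12 with DESeq2, 12 without families 340 and 368, 11 with the 2 groups alone, and 3 to 4 when either msCol library was left out. In epiHybrids 6 members were called, 10 with DESeq2, and 0 to 2 when either msCol library was left out, of which 1 was among the 6. DESeq2 added on/off members that had 0 counts in both msCol libraries, among them AT4G05025 and AT4G07965. The 52 calls for the relation of father and epiHybrid became 28 without the 2 farthest fathers and 28 with a filter of 1 CPM in 36 libraries, which tested 133 members. Without the 2 families against their labels, 41 members were called for the relation, and 54 pairs of on/off members co-segregated in place of 57. Pair counts were compared without the number of possible pairs, which changes with the number of on/off members (14 in the main setting). A smaller share of pairs co-segregated with off at 0.25 CPM, 44 pairs among 15 members. With at least 2 lines per state it was smaller too, 49 pairs among 19 members. The share was larger with at least 5 lines per state, 44 pairs among 10 members. It was also larger with on at 0.5 CPM (77 among 16) and on at 2 CPM (46 among 12). Of the genes followed one by one (7 in epiRILs and 6 in epiHybrids against msCol, 10 for the relation), none changed direction under the alternatives run. The causes of these moves were not tested, beyond fewer samples or genes tested by construction. NDB2 had r = 0.03 after removal of 5 principal components, against 0.55 before. The msCol group, with 2 libraries, limits every contrast with it.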
